A study of Homo sapiens with 54 samples.

Results

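The 6 genes described here are the 3 members of the NR4A family (NR4A1, NR4A2, NR4A3) and 3 members of the EGR family (EGR1, EGR2, EGR3), taken by gene symbol from a table of 58870 genes. All 6 passed the filter on low counts, which kept 16836 genes for testing, although EGR2 and EGR3 sat close to its limit. The members were selected on values measured in these same libraries: the fall of NR4A2 with 2.5 µM CP14 and its size in the 2 cell types, together with a list of immediate early genes. The 2.5 µM CP14 libraries therefore enter below as a description with no test. Every other comparison with vehicle shares its vehicle libraries with that choice, whereas comparisons between doses or between compounds at 1 and 5 µM use neither.

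RNA sequencing was performed on A549 cells, an established human lung adenocarcinoma line, carrying either an insertless vector (empty-vector cells) or a USP18 expression vector (USP18 cells). USP18 removes the ubiquitin-like protein ISG15 from its substrates. Both cell types received vehicle (DMSO), CP2 (2 or 5 µM), CP14 (1, 2.5 or 5 µM) or CP18 (1, 2.5 or 5 µM) for 48 h, which makes 18 groups of 3 replicates and 54 libraries. Compounds are named by their codes alone. The promoter driving USP18, and whether the cells of each vector are a clone or a stable line, are not given in the sources used here. The labels do not state that replicates were separate cultures, so p-values measure only the spread between these samples, which may be technical.

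NR4A1 (Nur77), NR4A2 (Nurr1) and NR4A3 (NOR1) are orphan nuclear receptors whose ligand pocket is filled by their own side chains, so that their activity follows mainly from how much of each is made. They bind an extended receptor site called NBRE as monomers, and NR4A1 and NR4A2 can also pair with retinoid X receptors. EGR1, EGR2 and EGR3 are zinc-finger factors that bind a GC-rich site and are restrained by the co-repressors NAB1 and NAB2. Both families belong to the immediate early genes, which growth factors, calcium and stress switch on within minutes through ERK signalling, SRF with its ELK partners at CArG boxes, and CREB at cAMP response elements (CRE). In lung epithelium these factors are best known as short-lived sensors of growth factor, inflammatory and stress signals.

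Depth was even, with 16673228 to 25609062 expected counts per library (median 19701304). USP18 itself, the check of the labels, was at 8.77 to 12.3 CPM (counts per 1000000 counts in the tested genes of a library, after TMM scaling) in the 27 empty-vector libraries and at 947 to 2115 CPM in the 27 USP18 libraries. Among the latter it lay at 1292 to 1328 CPM with vehicle, at 1965 to 2115 CPM with 5 µM CP14 and at 947 to 1321 CPM with the other treatments, and its part in the changes of USP18 cells was not tested. Epithelial and A549 markers were all detected (KRT8, KRT18, KRT7, CDH1, AKR1C1, ALDH1A1 and NQO1 at 21.2 CPM or more in every library, EPCAM at 1.33 to 14.8 CPM). Markers of other cell types were at or near 0, with CD3E at 0 throughout and PTPRC, PECAM1, VWF, COL1A2 and DCN at most 0.498 CPM, while COL1A1 lay at 3.66 to 14.2 CPM and CD14 at 0.0495 to 4.07 CPM. Small RNAs without a poly(A) tail, a sign of how the libraries were selected, took 0.0023% to 0.0802% of the counts. In bulk RNA, a smaller share of cells expressing a gene and less RNA of that gene per cell cannot be told apart.

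Levels differed widely between the members in vehicle-treated empty-vector cells. Per kilobase of the canonical transcript, EGR1 (74.8 CPM per kb) and NR4A1 (73.4 CPM per kb) were the abundant members. NR4A2 followed at 3.55 and NR4A3 at 1.13 CPM per kb. EGR2 (0.362 CPM per kb) and EGR3 (0.084 CPM per kb) were barely detected. In GENCODE v44 on GRCh38, NR4A1 (ENSG00000123358.20) lies on the plus strand of chromosome 12 from 52022832 to 52059507 with 7 exons in its canonical transcript. NR4A2 (ENSG00000153234.14) lies on the minus strand of chromosome 2 from 156324437 to 156342348 with 8 exons, and NR4A3 (ENSG00000119508.18) on the plus strand of chromosome 9 from 99821855 to 99866891 with 8 exons. EGR1 (ENSG00000120738.8) lies on the plus strand of chromosome 5 from 138465479 to 138469303 and EGR2 (ENSG00000122877.16) on the minus strand of chromosome 10 from 62811996 to 62819167, each with 2 exons.

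Promoter sequence is shown for the members whose RefSeq windows hold the elements through which immediate early genes are known to be switched on. RefSeq windows on GRCh38.p14 were searched for 4 of the 6 members (NR4A1, NR4A3, EGR1 and EGR2). No window of NR4A2 or EGR3 was searched, which does not show that the reference lacks one. In the sequences below, written 5′ to 3′ along the gene and ending at the start site or at the first annotated exonic base before it, capitals mark the CRE core TGACG on either strand and the SRF CArG box. EGR1 is chr5:138465229-138465478 (plus strand), EGR2 is the start site at chr10:62816374-62816616 (minus strand), and NR4A3 is chr9:99821635-99821854 (plus strand).
EGR1: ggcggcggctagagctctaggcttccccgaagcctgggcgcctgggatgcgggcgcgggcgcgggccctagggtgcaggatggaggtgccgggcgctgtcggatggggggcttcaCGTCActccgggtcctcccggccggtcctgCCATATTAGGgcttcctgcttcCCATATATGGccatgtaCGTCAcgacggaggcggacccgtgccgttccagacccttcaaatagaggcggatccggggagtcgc
EGR2: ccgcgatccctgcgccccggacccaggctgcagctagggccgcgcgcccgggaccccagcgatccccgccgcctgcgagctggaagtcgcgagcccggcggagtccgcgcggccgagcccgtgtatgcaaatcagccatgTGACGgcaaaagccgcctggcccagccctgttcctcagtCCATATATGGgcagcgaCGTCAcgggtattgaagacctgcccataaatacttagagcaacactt
NR4A3: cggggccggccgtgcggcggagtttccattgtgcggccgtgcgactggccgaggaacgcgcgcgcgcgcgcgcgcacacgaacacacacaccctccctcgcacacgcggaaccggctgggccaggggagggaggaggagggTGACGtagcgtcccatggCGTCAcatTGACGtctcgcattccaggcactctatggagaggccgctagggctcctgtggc

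The EGR1 window held 2 CArG boxes, 105 and 83 bases before the start site, and CRE cores at 135 and 66 bases. The EGR2 window held 1 CArG box at 71 bases, with CRE cores at 110 and 54 bases. The NR4A3 window held no CArG box and carried CRE cores at 109, 91 and 83 bases, with a further one at 25 bases in an annotated exon that is not printed. Among 35116 RefSeq windows of 250 bases, 1.16% hold a CArG box and 21.2% a CRE core on either strand. The other motifs searched on both strands were absent from all windows of the 4 members: the full CRE TGACGTCA, which contains the core (1.65% of all windows), the EGR site GCGTGGGCG (0.72%), the ETS core CCGGAAGT (3.42%), the NBRE AAAGGTCA (1.05%), the AP-1 site TGANTCA (6.57%) and the TATA motif TATAAA (10.7%). Both NR4A1 windows and the other 2 EGR2 windows held none of the 8 motifs. A match describes these letters in this window only.

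Before treatment, the members already differed between the cell types, and in opposite directions. NR4A2 was 1.87-fold higher in USP18 cells and NR4A3 1.47-fold higher, whereas EGR1 was 2.48-fold lower and EGR2 was lower too. NR4A2 lay at 11.9, 12.3 and 12.9 CPM in the 3 empty-vector libraries and at 22.9, 23.5 and 22.9 CPM in the 3 USP18 libraries. EGR1 lay at 229, 247 and 228 CPM against 91.4, 93.6 and 98.7 CPM. For both genes every library of one cell type was outside the range of the other. The log2 differences, USP18 minus empty vector, were 0.90 (SE 0.11, edgeR adjusted p = 6.4e-10) for NR4A2, 0.56 (SE 0.15, adjusted p = 0.0019) for NR4A3 and -1.31 (SE 0.06, adjusted p = 3.8e-24) for EGR1. The NR4A2 values of these vehicle libraries also entered the choice of the members, so its adjusted p here is a description and no independent support. EGR2 had 26, 21 and 21 counts in empty-vector libraries and 2, 6 and 9 in USP18 libraries (log2 difference -1.93, SE 0.57, adjusted p = 0.0038). In this comparison it reached the filter's minimum of 10 counts only in empty-vector libraries, where it was high, which limits this call. EGR3, at 5, 9 and 10 counts against 0, 2 and 5, overlapped and did not pass (log2 difference -1.67, SE 0.79, adjusted p = 0.072). NR4A1 was at 182 ± 9.01 CPM (SD, n = 3) against 155 ± 3.42 CPM, a log2 difference of -0.23 (SE 0.09, edgeR adjusted p = 0.034), and this call was lost in 4 of the 6 fits that left out 1 library (empty-vector vehicle replicate 2 and each USP18 vehicle replicate, adjusted p from 0.058 to 0.13) and with DESeq2 (adjusted p = 0.074). The 5 of 6 members called, which include NR4A2 and EGR2, stand beside 51.2% of all genes called in this comparison.

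Across the 7 tested treatments, NR4A genes made up most of the decreases and EGR1 most of the increases. In empty-vector cells 16 of 42 member tests passed, 15 lower and 1 higher. In USP18 cells 27 of 42 passed, 21 lower and 6 higher. NR4A1 was called lower in 3 treatments of empty-vector cells and 6 of USP18 cells, NR4A2 in 4 and 7, and NR4A3 in 5 and 7, with none of the 3 called higher. EGR1 was called higher once and lower 3 times in empty-vector cells, and higher 5 times and lower once in USP18 cells. EGR2 was called in none by this edgeR fit. The USP18 count includes 1 higher value of EGR3, which passed the filter on low counts partly through the group where it was high, and is 26 of 35 with EGR3 left out.

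These counts have to be read against how much of the transcriptome moved. With 2 µM CP2, 1 of 6 members was called in empty-vector cells and 4 of 6 in USP18 cells, beside 0.558% and 0.434% of all genes. With 5 µM CP2 the numbers were 3 and 4 of 6, beside 11.8% and 18.8% of genes. CP14 at 1 µM gave 1 and 4 of 6 beside 0.202% and 10.6% of genes. CP14 at 5 µM gave 4 and 5 of 6 (4 of 5 in USP18 cells with EGR3 left out) beside 60.9% and 65.6%, a background so high that the count itself says little about the members. CP18 at 1 µM gave 0 and 3 of 6 beside 0% and 11.8%. In that empty-vector comparison edgeR called 0 genes, while 1386 had an unadjusted p under 0.05 and DESeq2 called 45. CP18 at 2.5 µM gave 4 and 3 of 6 beside 3.15% and 9.84%, and at 5 µM 3 and 4 of 6 beside 13% and 15.3%.

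NR4A2, which specifies and maintains dopamine neurons and restrains inflammatory genes in other cells, showed the deepest fall of the 6 genes. With 5 µM CP14 it dropped 5.65-fold in empty-vector cells and 8.39-fold in USP18 cells. The 3 empty-vector libraries went to 2.29, 1.55 and 2.76 CPM and the 3 USP18 libraries to 2.46, 3.07 and 2.71 CPM. Starting levels that did not overlap between the cell types thus ended in overlapping ranges. The log2 changes were -2.50 (SE 0.15, adjusted p = 2.6e-20) and -3.07 (SE 0.13, adjusted p = 1.0e-25).

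The other compounds lowered NR4A2 as well, further in USP18 cells by value. CP2 at 5 µM left it at 7.43, 6.68 and 7.36 CPM in empty-vector cells (log2 change -0.79, adjusted p = 5.2e-06) and at 7.98, 8.01 and 7.48 CPM in USP18 cells (-1.56, adjusted p = 3.6e-15). CP18 at 5 µM left it at 8.48, 8.19 and 9.21 CPM (-0.52, adjusted p = 0.0019) and at 8.21, 7.75 and 8.87 CPM (-1.48, adjusted p = 4.6e-14). With 5 µM CP18 the ranges of the cell types overlapped, whereas with 5 µM CP2 every USP18 library lay above every empty-vector library. In USP18 cells NR4A2 was lower even at the smallest doses, by 0.87 on the log2 scale with 1 µM CP14 (adjusted p = 2.7e-07), by 0.77 with 1 µM CP18 (adjusted p = 5.0e-06) and by 0.50 with 2 µM CP2 (adjusted p = 0.0098). The last call was lost on leaving out USP18 vehicle replicate 2 (adjusted p = 0.061) or replicate 1 of the treated group (adjusted p = 0.12). At those doses in empty-vector cells the log2 changes, -0.27, -0.19 and -0.39, did not pass (edgeR adjusted p = 0.47, 0.71 and 0.13), and DESeq2 called the last (adjusted p = 0.037), as did edgeR without a filter (0.037) and in a fit of those libraries alone (0.0075).

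NR4A1, an immediate early receptor that moves to mitochondria during some forms of apoptosis, fell with 5 µM CP14 to a similar degree in both cell types. It went from 176, 193 and 178 CPM to 53.2, 47.9 and 49.3 CPM in empty-vector cells, 3.64-fold lower (log2 change -1.86, SE 0.10, adjusted p = 2.6e-21). In USP18 cells it went from 151, 157 and 158 CPM to 44.5, 44.0 and 42.5 CPM, 3.56-fold lower (-1.83, SE 0.10, adjusted p = 6.5e-21). No treated library came near a vehicle library. CP18 gave no graded pattern in empty-vector cells. The mean was 147 ± 13.4 CPM at 1 µM (adjusted p = 0.22, but 2.6e-10 without a filter on low counts and 0.011 in a fit of those libraries alone), 106 ± 7.29 CPM at 2.5 µM (log2 change -0.78, adjusted p = 4.0e-07) and 182 ± 30.9 CPM at 5 µM. At 5 µM the 3 libraries, at 170, 159 and 217 CPM, straddled the vehicle range (log2 change near 0, 95% interval -0.19 to 0.18). In USP18 cells 5 µM CP18 lowered NR4A1 to 128, 115 and 108 CPM (-0.41, adjusted p = 0.0018). At 1 µM CP18 it was called there only without a filter (-0.18, adjusted p = 0.0021) and in the fit of those libraries alone (0.016).

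Of the smaller NR4A1 calls, those with 2 µM CP2 and 1 µM CP14 in USP18 cells were lost without single libraries. CP2 at 5 µM lowered it by 0.39 on the log2 scale in empty-vector cells (adjusted p = 0.0029) and by 0.76 in USP18 cells (adjusted p = 4.2e-08), and 2.5 µM CP18 lowered it by 0.69 in USP18 cells (adjusted p = 1.9e-06). At 2 µM CP2 in USP18 cells the fall of 0.43 (adjusted p = 0.018) was lost on leaving out vehicle replicate 2 or 3 or any treated library (adjusted p from 0.081 to 0.095). At 1 µM CP14 in USP18 cells the fall of 0.34 (adjusted p = 0.014) was lost without vehicle replicate 3, treated replicate 1 or treated replicate 2 (adjusted p from 0.051 to 0.15). In empty-vector cells 2 µM CP2 and 1 µM CP14 left every treated library below every vehicle library, yet neither passed (adjusted p = 0.064 and 0.19). Both passed without a filter on low counts (log2 changes -0.36 and -0.31, adjusted p = 7.9e-13 and 1.5e-09). That setting also raised the calls over all genes, from 94 to 263 and from 34 to 276. Both passed as well in fits of their own libraries (1.4e-06 and 0.015), and the first also with 10 counts required in every library (0.041).

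NR4A3, which is a fusion partner in some sarcomas, fell with most treatments, and by value less with 5 µM CP14 in USP18 than in empty-vector cells. With 5 µM CP14 it stood at 3.00, 2.45 and 3.31 CPM in empty-vector cells, against 7.11, 6.00 and 5.92 CPM with vehicle (log2 change -1.12, SE 0.18, adjusted p = 3.1e-07). In USP18 cells the same dose left it at 4.86, 7.23 and 7.58 CPM, against 8.51, 8.54 and 11.0 CPM with vehicle (-0.51, SE 0.15, adjusted p = 0.0032). The USP18 call was lost without treated replicate 1, the lowest of the 3 (adjusted p = 0.067). With 5 µM CP18 the order between cell types was the opposite by value, with log2 changes of -0.55 (adjusted p = 0.021) in empty-vector cells and -1.55 (adjusted p = 1.0e-09) in USP18 cells. CP2 at 5 µM lowered it by 1.00 (adjusted p = 4.5e-05) and 1.27 (adjusted p = 4.1e-08).

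At lower doses NR4A3 was called in USP18 cells throughout. The log2 changes there were -0.92 with 1 µM CP14 (adjusted p = 8.8e-05), -0.72 with 1 µM CP18 (adjusted p = 0.0014), -0.95 with 2.5 µM CP18 (adjusted p = 4.5e-05) and -0.83 with 2 µM CP2 (adjusted p = 0.0037). Without USP18 vehicle replicate 3, the highest NR4A3 library of the series at 11.0 CPM, the last had an adjusted p of 0.073. In empty-vector cells 3 calls were fragile. The fall of 0.69 with 2 µM CP2 (adjusted p = 0.033) was lost without vehicle replicate 1 or 2 or treated replicate 2 or 3 (adjusted p from 0.12 to 0.24). The fall of 0.60 with 2.5 µM CP18 (adjusted p = 0.036) was lost in 5 of 6 such fits, all but the one without vehicle replicate 3 (adjusted p from 0.074 to 0.21), and that with 5 µM CP18 was lost without vehicle replicate 1 or treated replicate 2 or 3 (adjusted p from 0.11 to 0.13).

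**Figure D1:**
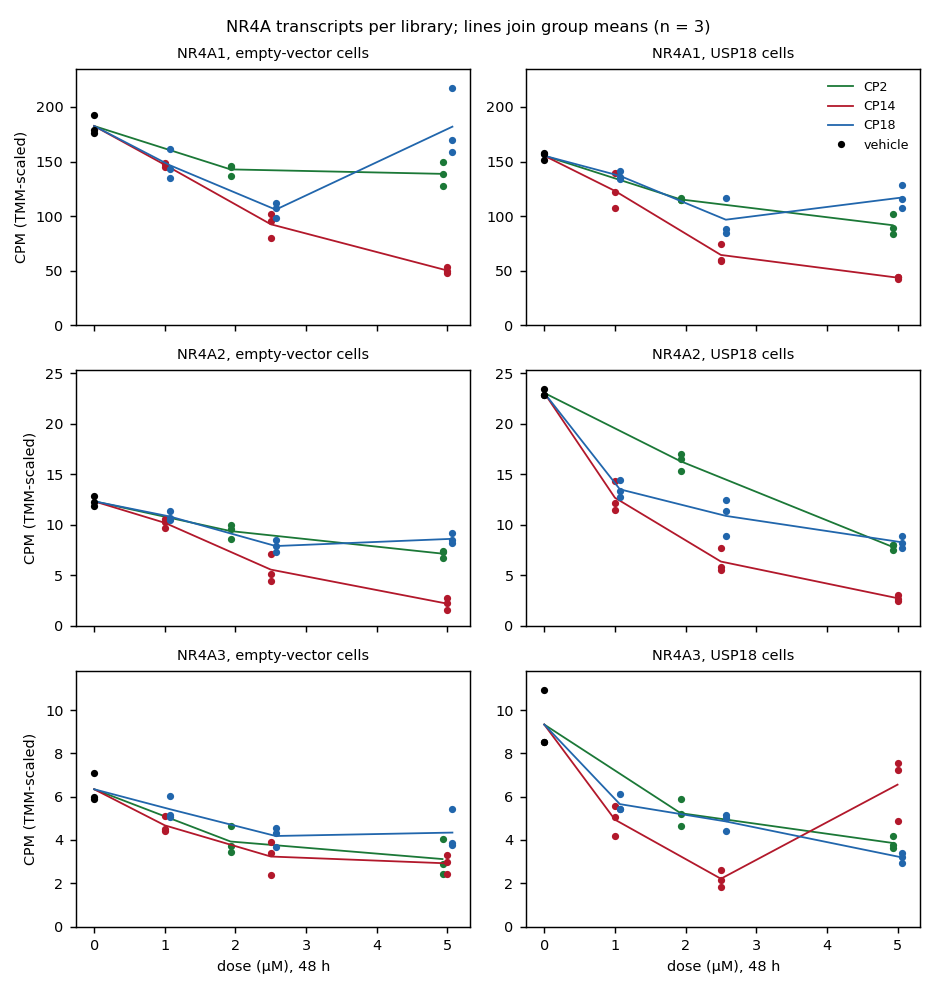
Levels of NR4A1, NR4A2 and NR4A3 in CPM in each of the 54 libraries, by compound, dose and cell type, with points for libraries and lines that join group means. NR4A1 and NR4A2 are lowest with 5 µM CP14 in both cell types (NR4A1 at 42.5 to 53.2 CPM), whereas NR4A3 at that dose stays at 4.86 to 7.58 CPM in USP18 cells.

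EGR1, which couples growth factor and stress signals to the transcription of many growth genes, rose with 5 of the 7 tested treatments in USP18 cells and with 1 in empty-vector cells, where it fell with 3. In USP18 cells it rose with 5 µM CP18 to 175, 172 and 156 CPM, 1.77-fold above vehicle (log2 change 0.83, SE 0.06, adjusted p = 1.7e-14). It also rose there with 5 µM CP14 to 137, 128 and 135 CPM (0.50, adjusted p = 8.5e-10), with 5 µM CP2 to 138, 120 and 129 CPM (0.45, adjusted p = 2.3e-07), with 1 µM CP14 (0.40, adjusted p = 2.0e-05) and with 1 µM CP18 (0.36, adjusted p = 9.5e-05). Every library of these 5 groups lay above the vehicle maximum of 98.7 CPM. At 2.5 µM CP18 the libraries overlapped with vehicle (92.0, 108 and 90.0 CPM, log2 change 0.02, 95% interval -0.10 to 0.15). At 2 µM CP2 EGR1 was lower by 0.27 on the log2 scale (adjusted p = 0.029), a call lost without vehicle replicate 2 or 3 or treated replicate 1 or 3 (adjusted p from 0.087 to 0.24).

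In empty-vector cells EGR1 fell with CP14 and with 2.5 µM CP18 and rose only with 5 µM CP18. CP18 at 2.5 µM took it to 129, 150 and 143 CPM, below every vehicle library (log2 change -0.74, SE 0.06, adjusted p = 2.5e-12). At 5 µM the same compound took it to 288, 314 and 318 CPM, above every vehicle library (0.39, adjusted p = 2.8e-06). CP14 at 5 µM lowered it to 197, 185 and 196 CPM (-0.28, adjusted p = 3.1e-05). The same change at 1 µM CP14 (-0.28, adjusted p = 0.014) was lost without vehicle replicate 2 or any treated library (adjusted p from 0.054 to 0.16). EGR1 with 5 µM CP2 lay at 244, 221 and 227 CPM, across the vehicle range (-0.02, 95% interval -0.14 to 0.09). Changes of -0.15 with 2 µM CP2 and -0.26 with 1 µM CP18 did not pass (edgeR adjusted p = 0.37 and 0.06). Both passed without a filter on low counts (adjusted p = 0.027 and 2.2e-07) and in fits of their own libraries (0.019 and 0.013), and the second also with DESeq2 (0.0076) and with 10 counts required in every library (0.047).

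EGR2, needed for myelination and for lymphocyte restraint, and EGR3, needed for muscle spindles to form, were near the limit of detection. EGR3 (ENSG00000179388.9) lies on the minus strand of chromosome 8 from 22687659 to 22693480 (GRCh38) with 2 exons. EGR2 was at or under the floor of 3 counts in all 3 libraries of 1 group (USP18 cells with 2 µM CP2), and EGR3 in 5 groups, all of USP18 cells (2 and 5 µM CP2, 2.5 µM CP14, 1 and 2.5 µM CP18). In USP18 cells with 5 µM CP14, EGR2 reached 8, 18 and 15 counts against 2, 6 and 9 with vehicle (log2 change 1.29, SE 0.60, adjusted p = 0.056), and this change was called by DESeq2 (adjusted p = 0.049), by edgeR without a filter on low counts (0.043) and in a fit of those libraries alone (0.033). EGR3 reached 4, 16 and 16 counts against 0, 2 and 5, with 1 treated library inside the vehicle range. EGR3 had at least 10 counts in few groups, this one among them, and passed the filter through those, so its values there are given as a description with no test. No EGR2 or EGR3 change from vehicle passed in empty-vector cells. Their log2 changes from vehicle there had SEs of 0.47 to 0.79, so that changes of the size seen for EGR1 were not detectable at this depth.

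**Figure D2:**
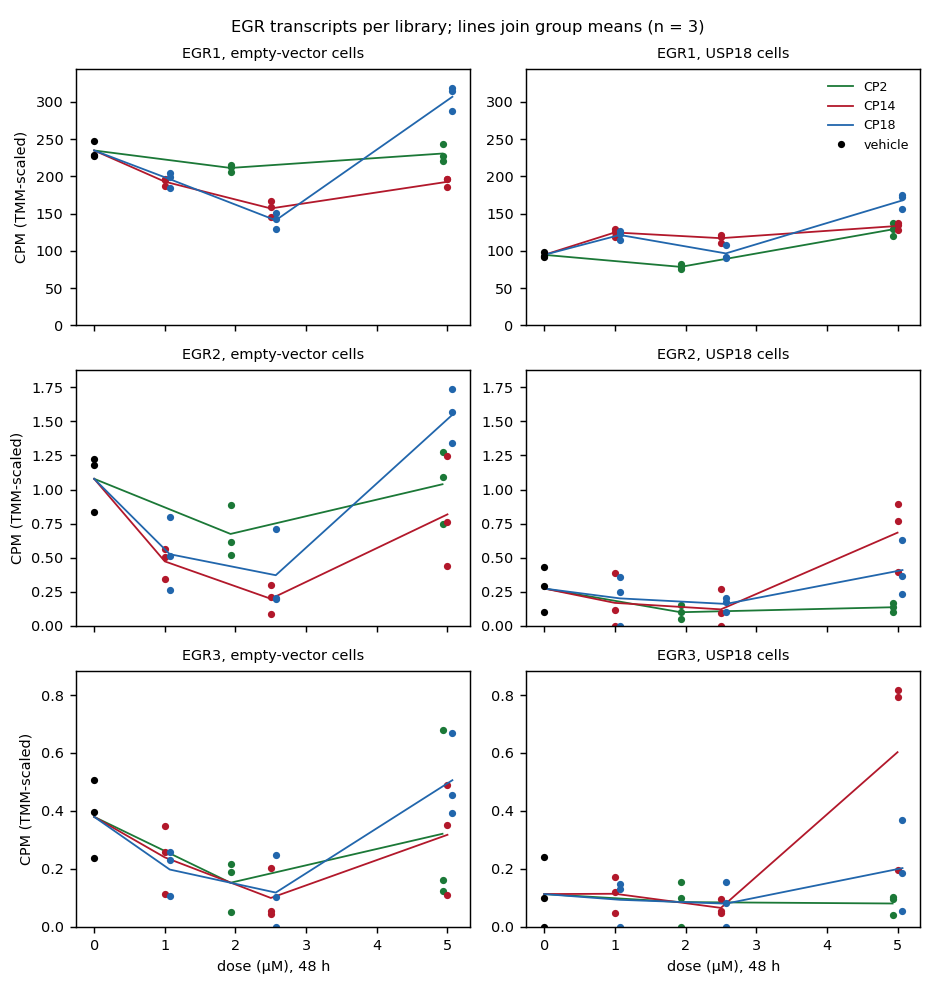
Levels of EGR1, EGR2 and EGR3 in CPM in each of the 54 libraries, by compound, dose and cell type, with points for libraries and lines that join group means. EGR1 in USP18 cells starts at 91.4 to 98.7 CPM and reaches 156 to 175 CPM with 5 µM CP18, while EGR2 and EGR3 stay below 2 CPM in every library.

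**Figure D3:**
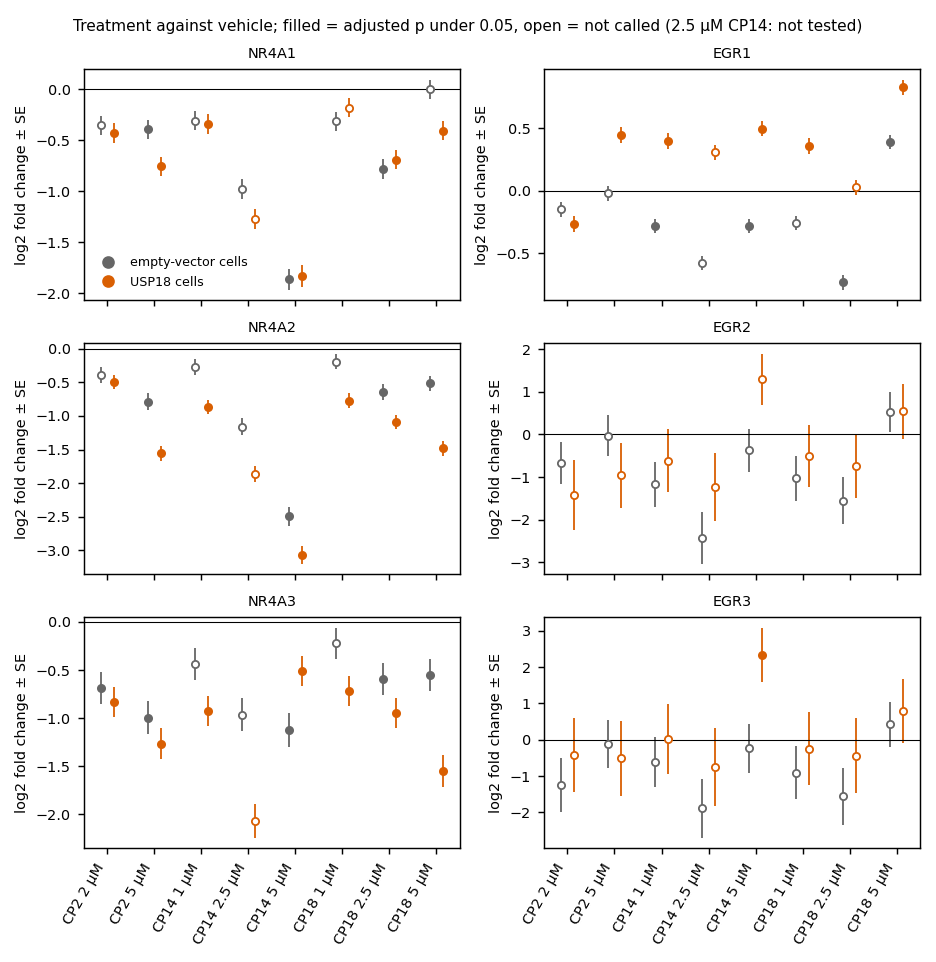
Log2 change from vehicle of each member with each treatment, for empty-vector and USP18 cells, with bars of the SE. Filled points are changes that passed the test. The NR4A members lie at or below 0 in both cell types, down to -3.07 for NR4A2 in USP18 cells with 5 µM CP14, while EGR1 lies above 0 in USP18 cells at all doses but 2 µM CP2.

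Whether a treatment changed a member differently in the 2 cell types was tested directly as the interaction, the change in USP18 cells minus that in empty-vector cells on the log2 scale. Of 42 tests 13 passed, and they fell to NR4A2, EGR1 and NR4A3. EGR1 passed in 6 of 7 treatments, always toward a more positive change in USP18 cells, whose levels stayed below those of empty-vector cells: 0.47 with 5 µM CP2 (adjusted p = 7.3e-04), 0.68 with 1 µM CP14 (3.7e-06), 0.78 with 5 µM CP14 (2.9e-10), 0.61 with 1 µM CP18 (4.9e-05), 0.76 with 2.5 µM CP18 (2.4e-07) and 0.44 with 5 µM CP18 (0.0019). All 6 held on leaving out any 1 library. NR4A2 passed in 5 of 7, always toward a deeper fall in USP18 cells. Its differences with 5 µM CP2 (-0.77, adjusted p = 0.0066) and 5 µM CP18 (-0.96, adjusted p = 5.2e-04) held in every such fit. All 7 interactions share both vehicle groups, between which NR4A2 and EGR1 already differed. The NR4A2 values of these groups entered the choice of the members, so its interaction calls are not independent of that choice.

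The remaining interaction calls were fragile. For NR4A2 with 1 µM CP14 (-0.60, adjusted p = 0.033) 10 of 12 fits without 1 library lost the call (adjusted p from 0.054 to 0.11), the exceptions being those without replicate 1 of the treated empty-vector cells or replicate 3 of the treated USP18 cells. With 5 µM CP14 (-0.57, adjusted p = 0.042) 9 of 12 lost it (adjusted p from 0.053 to 0.28), all but those without empty-vector vehicle replicate 3 or replicate 2 of either treated group. With 1 µM CP18 (-0.58, adjusted p = 0.026) 6 of 12 lost it (0.05 to 0.1), namely those without empty-vector vehicle replicate 1 or 3, USP18 vehicle replicate 2, treated empty-vector replicate 1 or 2, or treated USP18 replicate 3. NR4A3 passed with 5 µM CP14 toward a smaller fall in USP18 cells (0.61, adjusted p = 0.047) and with 5 µM CP18 toward a deeper one (-0.997, adjusted p = 0.023). The first was lost in 8 of 12 fits, all but those without empty-vector or USP18 vehicle replicate 3, treated empty-vector replicate 3 or treated USP18 replicate 1 (adjusted p from 0.052 to 0.16), with replicate numbers as a block (adjusted p = 0.053), without a filter on low counts (0.057) and in a fit of that comparison's own libraries (0.059). The second was lost in 6 of 12, those without empty-vector vehicle replicate 2 or 3, USP18 vehicle replicate 3, treated empty-vector replicate 1, or treated USP18 replicate 2 or 3 (adjusted p from 0.054 to 0.12), and in the fit of its own libraries (0.063).

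No NR4A1 interaction passed in the fit over all libraries. The values furthest from 0 were -0.40 with 5 µM CP18 (95% interval -0.67 to -0.14, adjusted p = 0.17) and -0.36 with 5 µM CP2 (-0.64 to -0.09, adjusted p = 0.24). Without a filter on low counts edgeR called both (adjusted p = 1.1e-07 and 2.1e-05), and a fit of that comparison's own libraries called the second (adjusted p = 0.047). At 5 µM CP14 the interval of the difference was -0.26 to 0.33. Against all genes, the interaction calls were 0 of 6 members beside 0.00594% with 2 µM CP2 (1 gene, SERPINE2) and 2 of 6 beside 0.843% with 5 µM CP2. They were 2 of 6 beside 1.86% with 1 µM CP14, 3 of 6 beside 26.4% with 5 µM CP14, and 2 of 6 beside 4.35% with 1 µM CP18. With 2.5 µM CP18 EGR1 was among 5 genes called (0.0297%), with GPRC5A, CREM, NRG1 and JUN, the last also a partner of FOS in the AP-1 factor. With 5 µM CP18 3 of 6 members stood beside 0.719%. With 1 µM CP14 all 6 tested small RNAs without a poly(A) tail also had a called interaction, toward a more positive change in USP18 cells (median log2 difference 5.09), as did 4 of 6 with 1 µM CP18 (median 3.77), and their part in the member values was not tested.

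**Figure D4:**
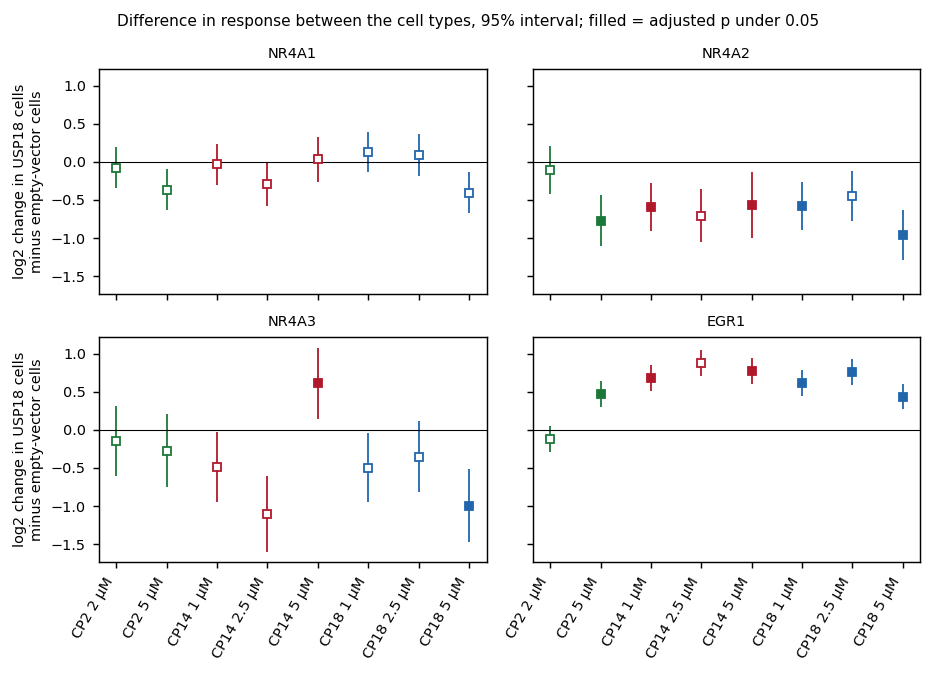
Change in USP18 cells minus change in empty-vector cells on the log2 scale for NR4A1, NR4A2, NR4A3 and EGR1 with each treatment, with bars of 95% intervals. EGR1 lies above 0 in all treatments but 2 µM CP2, up to 0.89 with 2.5 µM CP14, which was not tested, and NR4A2 lies below 0, down to -0.96 with 5 µM CP18.

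NR4A1 and NR4A2 were lower at the higher than at the lower CP14 dose in both cell types. Whether this step differed between the cell types was not tested. From 1 to 5 µM, NR4A2 fell by 2.22 on the log2 scale in empty-vector cells (adjusted p = 6.0e-18) and by 2.20 in USP18 cells (adjusted p = 3.3e-19). NR4A1 fell by 1.55 (adjusted p = 3.8e-18) and 1.49 (adjusted p = 2.1e-17). These contrasts use no vehicle library and no 2.5 µM library. NR4A3 fell by 0.68 in empty-vector cells (adjusted p = 0.0013) but stood higher at 5 than at 1 µM in USP18 cells (0.41, adjusted p = 0.024), where 1 of the 3 libraries at 5 µM overlapped those at 1 µM. The latter call was lost without replicate 1 at 1 µM or replicate 2 or 3 at 5 µM (adjusted p from 0.11 to 0.15). EGR1 was not called between 1 and 5 µM CP14 in empty-vector cells (95% interval -0.12 to 0.12) or in USP18 cells (log2 difference 0.10, adjusted p = 0.14). In USP18 cells EGR2 was higher at 5 µM (1.90, adjusted p = 0.0089), with 8, 18 and 15 counts against 0, 9 and 2 and the nearest libraries at 0.393 and 0.387 CPM, a call lost without replicate 1 at 1 µM (adjusted p = 0.076). Only libraries at 5 µM reached the filter's minimum of 10 counts there, which limits this call. EGR3 lay there at 1, 4 and 2 counts with 1 µM and at 4, 16 and 16 with 5 µM. The members called other than EGR3, 3 and 4 of 5, stand beside 60% and 66.6% of all genes. In USP18 cells all 6 tested small RNAs without a poly(A) tail were lower at 5 than at 1 µM CP14 (median log2 difference -2.89). The part of these small RNAs in the member values was not tested.

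EGR1 was higher at the highest than at the lowest dose of CP18 in both cell types, and of CP2 in USP18 cells. From 1 to 5 µM CP18 it rose by 0.65 in empty-vector cells (adjusted p = 3.9e-11) and by 0.47 in USP18 cells (adjusted p = 6.3e-07), and from 2 to 5 µM CP2 it rose by 0.72 in USP18 cells (adjusted p = 4.8e-12) while the 0.13 in empty-vector cells did not pass (adjusted p = 0.2). The course over CP18 doses was not steady by value, with means of 141 and 96.5 CPM at 2.5 µM below the 196 and 121 CPM at 1 µM. NR4A2 fell in USP18 cells over the same steps by 0.71 with CP18 (adjusted p = 7.2e-05) and 1.06 with CP2 (adjusted p = 1.8e-09), and NR4A3 by 0.83 with CP18 (adjusted p = 0.0023). In the same cells NR4A1 between CP18 doses (-0.22, adjusted p = 0.21) was called without a filter (5.0e-05) and in a fit of those libraries alone (0.023), and NR4A3 between CP2 doses (-0.44, adjusted p = 0.075) in such a fit (0.04) and with 10 counts required in every library (0.049). In empty-vector cells NR4A2 changed by -0.33 with CP18 (adjusted p = 0.068, and 0.036 with DESeq2) and by -0.39 with CP2 (adjusted p = 0.049), the latter lost on leaving out any 1 of its 6 libraries (adjusted p from 0.051 to 0.18). NR4A1 was lower by 0.33 with the higher CP2 dose in USP18 cells (adjusted p = 0.016), a call lost without replicate 2 or 3 at 5 µM (adjusted p = 0.065 and 0.11). In empty-vector cells with CP18, NR4A1 (0.31, adjusted p = 0.02) and EGR2 (1.56, adjusted p = 0.036) were higher at 5 µM. The NR4A1 groups overlapped, and its call was lost without replicate 1 or 3 at 1 µM or replicate 3 at 5 µM (adjusted p from 0.069 to 0.29). That of EGR2 was lost without replicate 2 or 3 of either dose (adjusted p from 0.067 to 0.18). Of 6 members, 1 and 3 were called for CP2 in empty-vector and USP18 cells (5.55% and 15.5% of all genes), and 3 and 3 for CP18 (12.8% and 3.52%).

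The compounds were then set against each other at matched doses, 10 pairs in all, of which 8 were tested and p-values adjusted over all genes and pairs. At 1 µM edgeR called no member between CP14 and CP18 in either cell type (0 of 6 beside 1.9% and 2.8% of all genes called), although without a filter on low counts it called NR4A1 in USP18 cells (log2 difference -0.16, adjusted p = 0.0037). In empty-vector cells the 95% intervals of the log2 difference were -0.19 to 0.19 for NR4A1, -0.32 to 0.15 for NR4A2, -0.56 to 0.13 for NR4A3 and -0.14 to 0.09 for EGR1. In USP18 cells they were -0.35 to 0.03, -0.32 to 0.13, -0.54 to 0.13 and -0.08 to 0.16 in the same order. These intervals leave room for modest differences, so equal action was not shown.

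At 5 µM CP14 and CP18 separated widely. NR4A1 was 3.63-fold lower with CP14 than with CP18 in empty-vector cells (log2 difference -1.86, adjusted p = 7.3e-21) and 2.68-fold lower in USP18 cells (-1.42, adjusted p = 3.5e-16). NR4A2 was 3.95-fold lower (-1.98, adjusted p = 1.9e-15) and 3.01-fold lower (-1.59, adjusted p = 4.4e-13). EGR1 was also lower with CP14, by 0.67 (adjusted p = 3.9e-14) and 0.33 (adjusted p = 8.9e-06). NR4A3 was lower with CP14 in empty-vector cells (-0.57, adjusted p = 0.015, lost without CP14 replicate 2 at 0.099 or CP18 replicate 1 at 0.17) but 2.05-fold higher in USP18 cells (1.03, adjusted p = 2.4e-06). The 4 of 6 members called in each cell type stand beside 54.6% and 61% of all genes.

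CP2 at 5 µM also left NR4A1 and NR4A2 higher than CP14 did. NR4A1 was 2.77-fold higher in empty-vector cells (log2 difference 1.47, adjusted p = 6.6e-17) and 2.10-fold higher in USP18 cells (1.07, adjusted p = 5.5e-12), and NR4A2 3.28-fold (1.71, adjusted p = 4.9e-13) and 2.85-fold higher (1.51, adjusted p = 2.1e-12). EGR1 was higher by 0.26 in empty-vector cells (adjusted p = 2.6e-04) and not called in USP18 cells (95% interval -0.17 to 0.07). In USP18 cells CP2 left NR4A3 lower than CP14 did (-0.76, adjusted p = 2.3e-04), and likewise EGR2 (-2.25, adjusted p = 0.0071). EGR2 had 2 to 4 counts with CP2 and 8 to 18 with CP14, so only CP14 libraries reached the filter's minimum of 10. EGR3 was at or under 2 counts there with CP2. In empty-vector cells the NR4A3 interval was -0.26 to 0.51. These calls, 3 and 4 of 5 with EGR3 left out, stand beside 54.3% and 61.4% of genes.

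Between CP2 and CP18 at 5 µM, NR4A1 and EGR1 were the members called. NR4A1 was lower with CP2 by 0.39 in empty-vector cells (adjusted p = 7.9e-04) and by 0.35 in USP18 cells (adjusted p = 0.0039), and EGR1 by 0.41 (adjusted p = 3.9e-08) and 0.38 (adjusted p = 5.5e-07). For NR4A2 the intervals were -0.52 to -0.01 in empty-vector cells (adjusted p = 0.12) and -0.33 to 0.17 in USP18 cells, and for NR4A3 in USP18 cells -0.09 to 0.64. The 2 of 6 members called in each cell type stand beside 3.32% and 2.79% of all genes. CP2 at 2 µM has no matched dose of another compound and was not compared.

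**Figure D5:**
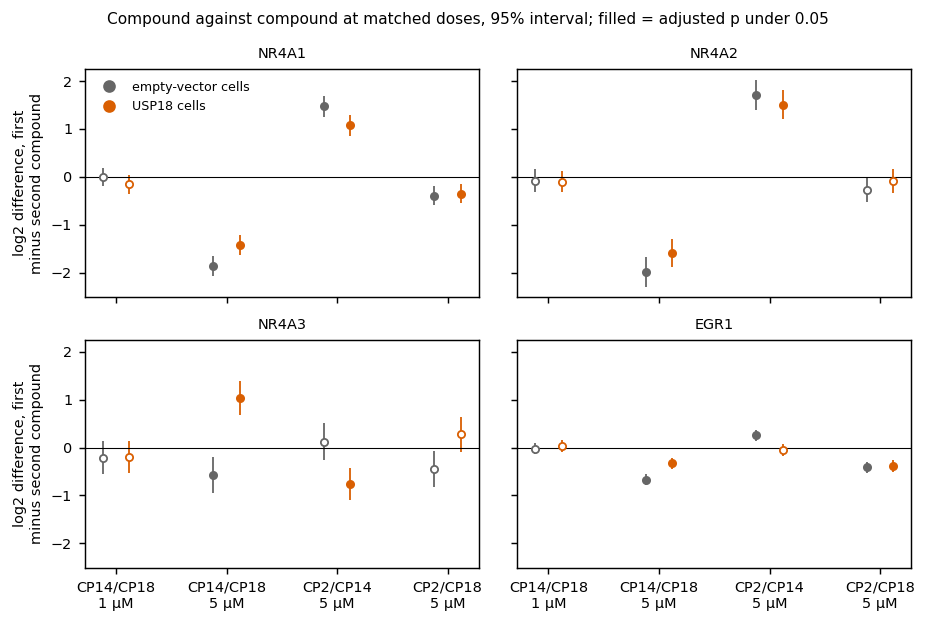
Log2 difference between compounds at matched doses for NR4A1, NR4A2, NR4A3 and EGR1 in each cell type, with bars of 95% intervals. CP14 and CP18 lie close to 0 at 1 µM and part at 5 µM, where NR4A2 stands at -1.98 in empty-vector cells and NR4A3 at 1.03 in USP18 cells.

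With 2.5 µM CP14, the comparison that chose the members, values are given as a description. NR4A2 lay at 7.15, 4.40 and 5.18 CPM in empty-vector cells and 5.84, 5.56 and 7.72 CPM in USP18 cells, which puts it 2.23-fold and 3.64-fold below vehicle. NR4A1 was 1.97-fold and 2.42-fold lower, and NR4A3 1.95-fold and 4.19-fold lower. EGR1 stood at 166, 159 and 145 CPM in empty-vector cells, below all vehicle libraries, and at 121, 110 and 119 CPM in USP18 cells, above them. EGR2 had 2 to 6 counts in empty-vector cells. Against 2.5 µM CP18 in USP18 cells, NR4A1 (log2 difference -0.58), NR4A2 (-0.77) and NR4A3 (-1.12) were lower with CP14 with no overlap, and EGR1 was higher (0.28). In empty-vector cells the libraries of NR4A1 (-0.19), NR4A3 (-0.37) and EGR1 (0.16) overlapped, and those of NR4A2 (-0.52) did not.

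Ordered by mean level over the 9 groups of each cell type, NR4A1 and NR4A2 were highest with vehicle and lowest with 5 µM CP14 in both. Neighbouring groups in that order overlapped for 5 and 6 of 8 steps in empty-vector cells and for 5 and 4 of 8 in USP18 cells. NR4A3 ran from vehicle down to 5 µM CP14 in empty-vector cells, where all 8 neighbouring steps overlapped, and from vehicle down to 2.5 µM CP14 in USP18 cells, with 4 of 8 overlapping. EGR1 was highest with 5 µM CP18 in both cell types, and lowest with 2.5 µM CP18 in empty-vector cells (4 of 8 steps overlapping) and with 2 µM CP2 in USP18 cells (5 of 8). EGR2 and EGR3 were also highest with 5 µM CP18 in empty-vector cells but with 5 µM CP14 in USP18 cells, and 7 or 8 of their 8 steps overlapped.

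Genes known to share the switches of these families were counted next. Their counts with 5 µM CP14 stand beside 60.9% of all genes called in empty-vector and 65.6% in USP18 cells, so that a list with a like share of calls shows nothing particular. Of 8 FOS and JUN genes, the AP-1 factors, 7 were higher and 1 lower with 5 µM CP14 in USP18 cells (median log2 change 1.27, beside 0.01 over all genes), and 3 higher and 2 lower in empty-vector cells (median 0.02, beside 0.00). JUN rose with that dose in both cell types (1.15, adjusted p = 1.7e-20, and 2.77, adjusted p = 3.8e-34), while FOS fell in both (-1.81, adjusted p = 1.4e-26, and -1.26, adjusted p = 4.5e-19). FOSL1 rose by 2.87 and 3.56. With 2.5 µM CP18 in empty-vector cells, where EGR1 was lowest, 5 of the 8 were lower and none higher (median -0.34), beside 3.15% of all genes called. In vehicle-treated cells 6 of 8 were lower and 1 higher in USP18 cells (median -0.86, beside -0.01 over all genes and 51.2% of genes called), including FOS (167 against 72.8 CPM) and JUN (64.4 against 26.5 CPM).

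Among 25 other immediate early genes tested of 26 listed, 17 were higher and 5 lower with 5 µM CP14 in empty-vector cells (median 0.51) and 20 higher and 3 lower in USP18 cells (median 0.96). With 2.5 µM CP18 in empty-vector cells 9 were lower and none higher (median -0.16), beside 3.15% of all genes called. With vehicle 14 were lower and 5 higher in USP18 than in empty-vector cells (median -0.28), beside 51.2%. The members called in most of the 14 treatment contrasts were GADD45B, a stress-induced regulator of MAP kinase signalling (12), ZFP36, which drives decay of short-lived mRNAs (11), the kinase SGK1 (11) and the antiproliferative BTG1 (10). Their calls were nearly all decreases, 12 of 12 for GADD45B, 10 of 11 for ZFP36, 11 of 11 for SGK1 and 8 of 10 for BTG1. With 5 µM CP14 SGK1 fell in both cell types (-0.84 and -0.65) and GADD45B in empty-vector cells (-0.24), while BTG1 rose in both (0.51 and 0.90) and ZFP36 in USP18 cells (0.60).

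Of 11 tested genes that feed back on ERK (12 listed), 9 were higher and none lower with 5 µM CP14 in empty-vector cells (median 0.72), and 7 higher and 3 lower in USP18 cells (median 0.45). DUSP6, a phosphatase of ERK, rose by 1.31 and 0.45, and DUSP5, its nuclear counterpart, by 1.47 and 3.16, while DUSP4 rose by 0.72 in empty-vector cells and stood at -0.17 in USP18 cells. With the other compounds no gene of this list was called higher, and in USP18 cells 5 were lower with 5 µM CP2 (18.8% of all genes called), 4 with 2.5 µM CP18 (9.84%) and 4 with 5 µM CP18 (15.3%). DUSP1, another phosphatase of MAP kinases, was lower in 9 of the 14 treatment contrasts but higher with 5 µM CP14 in both cell types (0.48 and 1.25), and DUSP4 was lower in 6 and DUSP6 in 5. In vehicle-treated cells 7 were higher and 3 lower in USP18 cells, beside 51.2% of all genes called, with DUSP6 at 59.5 against 12.6 CPM and DUSP1 at 116 against 273 CPM, the latter in the direction of EGR1. Of 13 ERK pathway genes, 4 were higher and 5 lower with 5 µM CP14 in each cell type, a share near that of all genes, with EGFR up by 1.21 and 1.99.

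Factors known to act at CArG boxes and CREs were counted next. Of 6 SRF genes (SRF, ELK and MRTF), 3 were higher and 2 lower with 5 µM CP14 in empty-vector cells (median 0.18) and 4 higher and 1 lower in USP18 cells (median 0.38), with ELK3 up by 0.88 and 1.33. Of 8 CREB family genes and coactivators, 4 were higher and 1 lower (median 0.15) and 5 higher and 1 lower (median 0.16). CREM, whose short forms repress CRE-driven genes, stood at 60.9 against 28.3 CPM in vehicle-treated USP18 against empty-vector cells (log2 difference 1.11, adjusted p = 9.0e-25), and changed with 5 µM CP14 by 0.52 and -0.42. Of the EGR co-repressors, NAB1 was lower with that dose in both cell types (-0.31 and -0.33) and NAB2 lower in empty-vector but higher in USP18 cells (-0.29 and 0.23), while EGR4 was not tested. The retinoid X partners RXRA and RXRB had no call in empty-vector cells with any treatment. In USP18 cells RXRA was higher with 5 µM CP2 (0.21, adjusted p = 0.004), 5 µM CP14 (0.12, adjusted p = 0.048) and 5 µM CP18 (0.17, adjusted p = 0.024), and RXRB lower with 5 µM CP18 (-0.18, adjusted p = 0.029), while RXRG was not tested.

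Other nuclear receptors of these cells moved both ways with 5 µM CP14. Of 15 tested, 6 were higher and 7 lower with 5 µM CP14 in empty-vector cells (median -0.05) and 7 higher and 6 lower in USP18 cells (median 0.09). The circadian repressors NR1D1 (0.73 and 1.58) and NR1D2 (0.61 and 1.03) rose, whereas NR2F2 (COUP-TFII) fell by 0.94 and 0.85. With the other compounds the calls were mostly lower, 5 lower and none higher with 5 µM CP2 (11.8% of all genes called) and 4 and none with 5 µM CP18 (13%) in empty-vector cells, and 5 lower and 1 higher with each in USP18 cells (18.8% and 15.3%). Of 6 tested small RNAs without a poly(A) tail, 5 were lower and none higher with 5 µM CP14 (median -1.88) and with 5 µM CP18 (median -2.15) in empty-vector cells, beside 60.9% and 13% of all genes called. In vehicle-treated cells 5 were lower in USP18 than in empty-vector cells (median -1.99, beside 51.2% of all genes called), and all 6 were higher with 1 µM CP14 in USP18 cells (median 2.68, beside 10.6%), where they took up to 0.0802% of counts in replicate 3. With 5 µM CP2 in USP18 cells 3 of the 6 were higher and none lower (median 1.56, beside 18.8%). Their part in the member changes was not tested.

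The genes whose mean log2 levels over the 18 groups ran most like each member were found among 13855 genes with a mean of at least 1 CPM. For NR4A1 they were LRCH4 (Pearson r = 0.963), FER1L4 (0.941) and LINC00641 (0.940), and for NR4A2 INSL4 (0.968), NLGN2 (0.961) and PDE10A (0.960). NR4A3 had looser neighbours, AMBRA1 (0.809), PNPLA2 (0.809) and SIK3 (0.803), and EGR1 had HES1 (0.919), SPHK2 (0.890) and PEX6 (0.886). Among the members themselves, NR4A1 and NR4A2 ran together with r = 0.94 over the 9 empty-vector groups and 0.93 over the 9 USP18 groups, NR4A1 and NR4A3 with 0.70 and 0.31, and NR4A2 and NR4A3 with 0.79 and 0.37. EGR1 and EGR2 had 0.92 and 0.50, and EGR2 and EGR3 0.91 in each. NR4A2 and EGR1 had 0.24 and -0.57. These correlations are descriptions over group means that share treatments and libraries.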

How the data were processed

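Poly(A)-selected RNA (per the labels) or ribosome-depleted total RNA (per the methods) was sequenced from 54 libraries of 18 groups. For each gene the authors deposited an expected count from RSEM, with no scaling between libraries. Reads were trimmed with Cutadapt 1.18 and aligned with STAR 2.7.0f to hg38. RSEM is version 1.3.1 in the submitters' processing notes, whereas the methods give a different version. The methods also name a mouse annotation for RSEM although the identifiers are human. Expected counts were rounded. Tests used edgeR 4.0.16 in R 4.3.3: filterByExpr (minimum count 10, minimum total 15), TMM scaling, and 1 quasi-likelihood fit of all 54 libraries with a coefficient per group. Treatment, interaction, vector, dose and compound contrasts were adjusted by Benjamini-Hochberg over all 16836 genes, compound pairs over all genes and pairs together. A change was called at an adjusted p under 0.05, whatever its size. Log2 CPM used a prior count of 2. SE and intervals come from the fit, and intervals and floors cover no error other than that between libraries or in counting.

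The members and gene lists were chosen with earlier results of these data known. Named genes are the 6 members, up to 4 genes per list (those called in most of the 14 tested treatment contrasts), the 3 genes most like each member with a mean of at least 1 CPM, and USP18. The fit was also run on simulated data, and the outcome is not reported here. Alternatives were DESeq2 1.42.0, other size factors, 2 other filters, the replicate number as a block, a small fit of the libraries of each comparison, the study's size threshold and leaving out each library. Within groups no library repeats another: the 54 replicate pairs had a chi-square of 1.80 to 11.1 per gene.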

Additional observations from a re-analysis of the deposited data

Results flagged for a closer look

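Changes that differed between USP18 and empty-vector cells by a direct test of the difference are collected here. Each value is the log2 change in USP18 cells minus that in empty-vector cells, tested with edgeR and adjusted over all genes. For EGR1 the differences were 0.47 with 5 µM CP2, 0.68 with 1 µM CP14, 0.78 with 5 µM CP14, 0.61 with 1 µM CP18, 0.76 with 2.5 µM CP18 and 0.44 with 5 µM CP18. For NR4A2 they were -0.77 with 5 µM CP2, -0.60 with 1 µM CP14, -0.57 with 5 µM CP14, -0.58 with 1 µM CP18 and -0.96 with 5 µM CP18. For NR4A3 they were 0.61 with 5 µM CP14 and -0.997 with 5 µM CP18, of opposite sign between the compounds. Both NR4A3 calls were lost in 8 and 6 of 12 fits that left out 1 library, in that order, the first also with the replicate block (adjusted p = 0.053) and without a filter on low counts (0.057), and both in fits of the comparison's own libraries (0.059 and 0.063). Those of NR4A2 with 1 µM CP14, 5 µM CP14 and 1 µM CP18 were lost in 10, 9 and 6 of 12. All 13 share the 6 vehicle libraries, whose NR4A2 values also entered the choice of the members.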

How the results depend on the processing

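No called member change reversed its direction under the alternatives run. Leaving EGR3 out, an alternative chosen after seeing the data, gave 26 of 35 treatment calls in USP18 cells, 17 of 30 dose calls and 19 of 40 compound pair calls, and changed no other count. Of 99 calls, 76 held in every fit that left out 1 library of the comparison and 23 were lost in at least 1 (with EGR3 left out, 73 of 96 held). Over such fits the counts of calls ran from 13 to 16 for treatments in empty-vector cells, 24 to 27 in USP18 cells, 9 to 13 for interactions, 4 to 5 for the vector, 16 to 18 for doses and 19 to 21 for compound pairs. With the study's size threshold added (log2 change over 1), the counts were 3, 8, 0, 2, 8 and 11 in that order, and with EGR3 left out 7 treatment calls in USP18 cells, 7 dose calls and 10 compound pair calls remained.

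Replicate numbers do not mark pairs in the labels: correlations of same-numbered deviations ran from -0.138 to 0.135, and 20 of 54 libraries matched their own number best. The fit with the replicate block called 12 interactions instead of 13, losing NR4A3 with 5 µM CP14 (adjusted p = 0.053), and changed no other call. DESeq2 gave no adjusted p for 53 of 216 member results, 3 of them called with edgeR, and of the rest lost 1 call (NR4A1 between vehicle groups, adjusted p = 0.074) and gained 4. RLE size factors changed none of the 216. A small fit of each comparison's own libraries lost NR4A3 interactions with 5 µM CP14 (adjusted p = 0.059) and 5 µM CP18 (0.063), NR4A2 between CP2 doses (0.072) and NR4A1 between CP18 doses (0.1) in empty-vector cells, and NR4A3 between CP14 doses in USP18 cells (0.053), and gained 11 calls. Without a filter the NR4A3 interaction with 5 µM CP14 was lost (0.057) and 12 calls were gained. Requiring 10 counts in every library removed EGR2 and EGR3 from testing and gained 3 calls. The cause of these differences was not tested. Depth limits EGR2 and EGR3, whose counts reach single digits in most groups.

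Counts over all genes moved with the setting in many comparisons. In empty-vector cells the 94 genes with 2 µM CP2 became 263 without a filter, 291 in the small fit and 152 with DESeq2, the 34 with 1 µM CP14 became 276, 136 and 88, and the 0 with 1 µM CP18 became 291, 58 and 45 (12 with 10 counts required). With 2.5 µM CP18 530 became 939 in the small fit and 807 with DESeq2, and with 5 µM CP18 2188 became 1315 in the small fit. In USP18 cells with 2 µM CP2 73 became 198 without a filter and 179 in the small fit, and with 5 µM CP18 2569 became 1680 in the small fit. Interaction counts with 2 µM CP2 went from 1 to 95 without a filter and 9 in the small fit, with 2.5 µM CP18 from 5 to 126 and 31 (23 with DESeq2), with 5 µM CP18 from 121 to 276 and 42 (196 with DESeq2), and with 1 µM CP14 from 313 to 628 and 914 (613 with DESeq2). With 5 µM CP2 142 interactions became 364 without a filter and 242 with DESeq2, and with 1 µM CP18 733 became 1134 in the small fit. In the small fit, dose counts in empty-vector cells fell from 935 to 383 for CP2 and from 2150 to 486 for CP18, and the count between CP2 and CP18 from 559 to 103, while in USP18 cells DESeq2 called 170 instead of 470 for that pair.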
